A study of Homo sapiens with 35 samples.

Results

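The comparison set day 10 against day 8 in a course of recovery from a proteasome inhibitor. It used the 5 libraries labelled Day 10 and the 5 labelled Day 8, 10 of the 35 RNA-seq libraries of the series, and the entries whose transcripts are protein coding. All libraries came from RPMI-8226, a multiple myeloma cell line, and the cells sampled on days 8 and 10 had received a pulse of the irreversible proteasome inhibitor carfilzomib (750 nM for 1 h), were then washed, and were kept in drug-free medium that was replaced every 48 h. The other libraries were taken on days 0, 1, 2, 4 and 6, with 5 subcultures on each day. The labels give the same carfilzomib treatment for day 0, but per the study's methods the day 0 cells were harvested before the drug was added, so day 0 stands for untreated cells here. All subcultures were split from one expanded culture of this line and their density was adjusted on days 6 and 8. No culture without carfilzomib was sampled on days 8 and 10, so the time since the pulse, the time in culture and the handling on those days cannot be told apart. The p-values measure the spread between these subcultures, and in bulk RNA a change in the share of a kind of cell and a change in RNA per cell cannot be told apart.

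Myeloma cells are malignant plasma cells, which secrete large amounts of immunoglobulin and depend on protein folding in the endoplasmic reticulum (ER) and on the proteasome to clear faulty protein. Blocking the proteasome also stops the recycling of amino acids from degraded protein. A shortage of amino acids activates the kinase GCN2, and unfolded protein in the ER activates the kinase PERK. Both lead to translation of the transcription factor ATF4, whose known targets are the enzymes that make serine and asparagine, amino acid transporters and aminoacyl-tRNA synthetases.

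Total counts were 6519392 to 10230383 in the day 8 libraries and 6979280 to 8894446 in the day 10 libraries. Levels are given as counts per 1e6, that is, protein-coding counts scaled to library size and its normalisation factor (CPM), and changes as edgeR log2 fold changes of day 10 relative to day 8 with their standard errors. A transcript was called past the threshold at an adjusted p (Benjamini-Hochberg over 17999 transcripts) of at most 0.05, and deregulated if its absolute log2 fold change was also above 1. The summed level of 9 plasma cell markers was 2219.97 to 2375.73 CPM on day 8 and 2437.02 to 2559.2 CPM on day 10, and that of the monocyte markers and that of the fibroblast markers stayed at or below 1.45 CPM in all 10 libraries. Of the other marker lists, the 5 epithelial markers summed to 435.22 to 501.63 CPM on day 8 and 364.43 to 426.36 CPM on day 10, mostly from the keratin KRT18, which fell by 0.34 on the log2 scale (adjusted p = 2.24e-05). The B-cell markers summed to 38.31 to 55.74 CPM over both days, the T and NK cell markers to 11.96 to 17.11 CPM, and the endothelial and erythroid markers to at most 4.93 CPM. The part of other cells in the results was not tested. On the first principal component of the 10 libraries (21.0% of the variance), all day 8 libraries lay between −24.4 and −12.0 and all day 10 libraries between 12.4 and 21.5. Day 8 replicate 1 stood apart on the second component (14.2%), at −33.7 against −10.9 to 21.7 for the others. Without it, 121 transcripts were deregulated, 99 of them shared with the full comparison.

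Between day 8 and day 10, 122 of 17999 transcripts (0.678%) were deregulated, 41 of them (0.228%) higher and 81 (0.45%) lower on day 10. Without the fold criterion, 1809 (10.1%) passed the threshold, 915 (5.08%) higher and 894 (4.97%) lower. Of the 12401 transcripts with a mean log2 CPM above 0, 904 were higher and 882 lower, a larger share than over all transcripts. Many gene lists below consist mostly of such transcripts, so the share of all transcripts is a low background for them. The 5 libraries of one day lay wholly above the 5 of the other for 1330 transcripts (7.39%), with 664 (3.69%) on the higher and 666 (3.7%) on the lower side. Of the lincRNA and antisense entries, 12 of 10264 (0.117%) were past both thresholds. The strongest rises at high level were in genes of amino acid supply, led by the glycine transporter SLC6A9 and the serine synthesis enzyme PSAT1. Falls at a mean log2 CPM above 4 included those of the semaphorin receptor PLXNA4, the glycolytic regulator PFKFB4 and the cyclin-dependent kinase inhibitor CDKN1C. The median log2 fold change over all transcripts was 0.0.

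**Figure D1:**
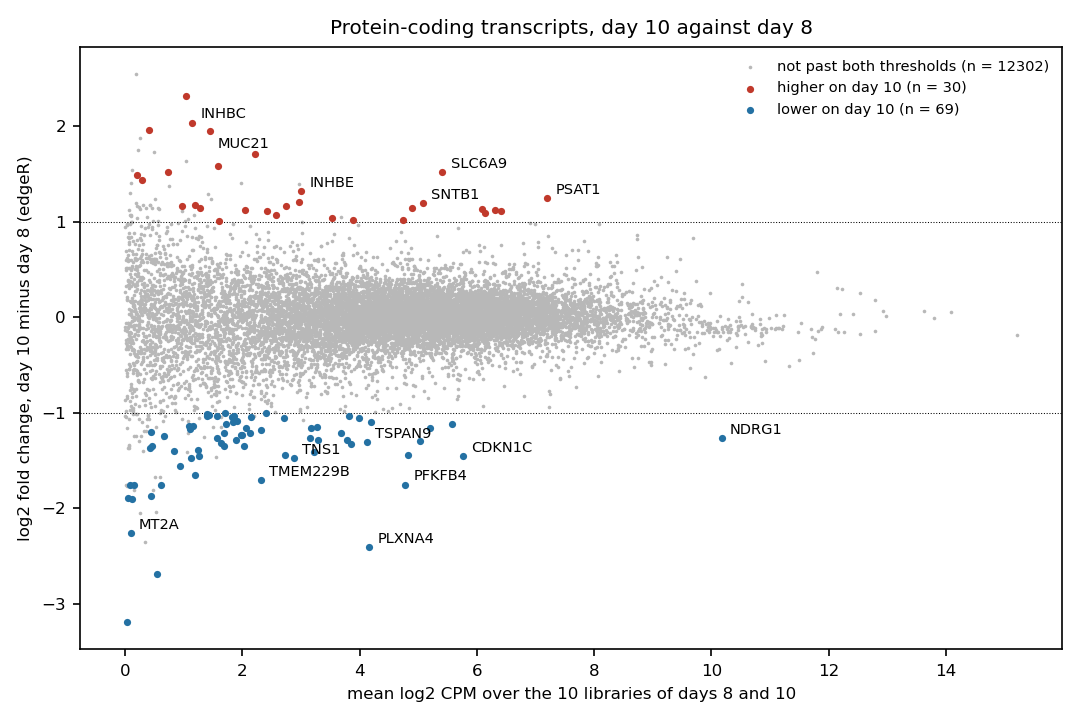
Log2 fold change of day 10 relative to day 8 (vertical axis) against mean log2 CPM over the 10 libraries (horizontal axis) for the transcripts with a mean log2 CPM above 0. Coloured points passed both thresholds, and the dotted lines mark log2 fold changes of −1 and 1. At high levels SLC6A9 and PSAT1 stand above the upper line, and PLXNA4, PFKFB4, CDKN1C and NDRG1 below the lower line.

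Genes that make serine, glycine, one-carbon units, proline and asparagine rose together. On day 10, 16 of 19 such genes were higher and 0 lower (84.2% called, against 10.1% of all transcripts). For 15 of the 19 the libraries of the 2 days did not overlap, against 7.39% of all transcripts. The median log2 fold change of the 19 was 0.78, where that of all transcripts was 0.0. PSAT1, the aminotransferase of the serine pathway (chromosome 9, 78297125 to 78330093), was at 98.7, 113, 89.2, 73.6 and 102 CPM in the day 8 libraries (replicates 1 to 5) and 234, 262, 215, 215 and 209 CPM in the day 10 libraries. Every day 10 library lay above every day 8 library, and the means were 95.4 ± 14.9 CPM and 227 ± 21.7 CPM (SD, n = 5; log2 fold change 1.25, standard error 0.09, adjusted p = 1.07e-13).

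ASNS, the asparagine synthetase, had 194, 219.6, 192, 165 and 196 CPM in the day 8 libraries (replicates 1 to 5) and 397, 412, 369, 374 and 357 CPM in the day 10 libraries. The lowest day 10 value was well above the highest day 8 value (log2 fold change 0.98, standard error 0.06, adjusted p = 2.12e-14). PHGDH, which catalyses the first step of serine synthesis, was less uniform, with 56.9, 56.1, 44.2, 36.8 and 37.9 CPM in the day 8 libraries (replicates 1 to 5) and 114, 97.9, 79.5, 96.6 and 122 CPM in the day 10 libraries. Its days also did not overlap (log2 fold change 1.13, standard error 0.17, adjusted p = 4.55e-06). ALDH1L2, the mitochondrial formyltetrahydrofolate dehydrogenase, rose by 1.14 (standard error 0.15) on the log2 scale. The smallest rises past the threshold were those of ALDH18A1 (0.18) and GOT1 (0.19), and the call of GOT1 was lost in 11 of 17 alternative settings. SHMT1 and ASL were among those that did not pass it, with log2 fold changes of 0.17 and 0.05.

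Transporters that carry amino acids across the plasma membrane followed. Of 19 measured members, 11 were higher and 3 lower (73.7% called, against 10.1% of all transcripts). SLC6A9, the glycine transporter GLYT1 (chromosome 1, 43991500 to 44031467), was at 28.3, 32.2, 21.8, 18.8 and 24.9 CPM in the day 8 libraries (replicates 1 to 5) and 87.2, 79.97, 68.3, 65.6 and 62.1 CPM in the day 10 libraries. It was the largest rise of the list, from 25.2 ± 5.28 CPM to 72.6 ± 10.6 CPM (SD, n = 5; log2 fold change 1.52, standard error 0.11, adjusted p = 3.18e-13). SLC7A11, the cystine/glutamate exchanger, had 62.7, 56.6, 50.5, 52.4 and 46.5 CPM in the day 8 libraries (replicates 1 to 5) and 119.8, 113, 121, 110.0 and 124 CPM in the day 10 libraries. Its 2 groups of 5 were narrow and far apart (log2 fold change 1.13, standard error 0.09, adjusted p = 7.65e-13). SLC3A2, the heavy chain that partners SLC7A11, rose by 0.65, the glutamine transporter SLC1A5 by 0.63 and the arginine and lysine transporter SLC7A1 by 0.69. The 3 members that fell were SLC7A7 (−0.51), SLC43A2 (−0.36) and SLC6A6, the taurine transporter (−0.30). The call of SLC7A7 was lost in 9 of 17 alternative settings and that of SLC43A2 in 4.

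Aminoacyl-tRNA synthetases charge tRNAs with their amino acids. Of the 20 cytosolic ones, 14 were higher and 1 was lower (median 0.42, 75.0% called against 10.1% of all transcripts). WARS, for tryptophan, had 94.3, 104, 83.2, 71.3 and 101 CPM in the day 8 libraries (replicates 1 to 5) and 187, 207, 161, 175 and 162 CPM in the day 10 libraries. The days did not overlap (log2 fold change 0.98, standard error 0.08, adjusted p = 7.53e-12). GARS, for glycine, rose by 0.87, MARS, for methionine, by 0.80 and IARS, for isoleucine, by 0.57. The spread of IARS was the narrowest of these, with 215 ± 5.56 CPM on day 8 and 319 ± 14.96 CPM on day 10 (SD, n = 5; adjusted p = 7.65e-13). DARS, for aspartate, fell by 0.16, and KARS, QARS, RARS, VARS and FARSA did not pass the threshold, and the call of DARS was lost in 8 of 17 alternative settings.

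ATF4 itself and the other effectors of the integrated stress response changed less. Of 23 listed, 11 were higher and 1 lower (median 0.27, 52.2% called against 10.1% of all transcripts). ATF4 had 552, 637, 569, 569 and 608 CPM in the day 8 libraries (replicates 1 to 5) and 667, 726, 634, 692 and 617 CPM in the day 10 libraries. The libraries of the 2 days overlapped, and the rise was small (by 0.18 on the log2 scale, standard error 0.05, adjusted p = 0.0193), and its call was lost in 5 of 17 alternative settings (adjusted p up to 0.0812). The largest rises of the list were in EIF4EBP1, an inhibitor of cap-dependent translation (0.69), the secreted glycoprotein STC2 (0.66) and the peptide hormone ADM2 (0.64). SESN2, an inhibitor of mTORC1, rose by 0.51 and the pseudokinase TRIB3 by 0.52. DDIT3, which encodes the transcription factor CHOP, had 19.7, 26.9, 21.8, 16.8 and 23.9 CPM in the day 8 libraries (replicates 1 to 5) and 26.6, 22.6, 26.97, 25.4 and 21.3 CPM in the day 10 libraries, and CHAC1, a glutathione-degrading enzyme, had a log2 fold change of 0.16. Neither passed the threshold (adjusted p = 0.547 and 0.589), and ATF3, a stress-induced factor of the same family, was called lower (−0.42, adjusted p = 0.0439), a call lost in 9 of 17 alternative settings.

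The letters TGATGNAA, the core of the C/EBP-ATF response element to which ATF4 binds, were searched on both strands in the RefSeq promoter windows (GRCh38.p14, 250 bases before to 50 bases after each start). They were in 172 of 10102 windows (1.7%) of transcripts with a mean log2 CPM above 0 and in 3.67% of all 27303 windows. Among genes with a window they were in 6 of 15 tRNA synthetases, 4 of 16 transporters, 3 of 13 synthesis genes and 3 of 20 integrated stress response effectors. Over all expressed transcripts past the threshold they were in 31 of 748 that were higher (4.14%) and 7 of 705 that were lower (0.993%). These shares are descriptions without a test. The stretches printed here, from before the start of 3 genes called higher and of CHAC1, which did not pass the threshold, show the match in capitals, 5′ to 3′ on the strand of the gene. TTGCATCA is the same element read on the other strand.
ASNS, chr7:97872429-97872516, minus strand: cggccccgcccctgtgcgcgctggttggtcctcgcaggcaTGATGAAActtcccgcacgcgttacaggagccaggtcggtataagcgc
IARS, chr9:92293698-92293750, minus strand: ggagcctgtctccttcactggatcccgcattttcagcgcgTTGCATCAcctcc
GOT1, chr10:99430775-99430862, minus strand: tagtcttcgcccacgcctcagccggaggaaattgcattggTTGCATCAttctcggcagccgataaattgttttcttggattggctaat
CHAC1, chr15:40953222-40953309, plus strand: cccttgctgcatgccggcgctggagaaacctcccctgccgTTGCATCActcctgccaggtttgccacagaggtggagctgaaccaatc

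Several genes of amino acid supply, among them the largest rises, did not climb steadily to their day 10 level. Not all dipped on day 8, and ALDH18A1 rose by 0.18 from day 6 to day 8 (edgeR adjusted p = 0.035). SLC6A9 had averaged 93.1 CPM on day 0 and 7.63 CPM on day 2. It recovered to 47.01 CPM on day 6, dropped to 25.2 CPM on day 8 and reached 72.6 CPM on day 10. From day 6 to day 8 it fell by 0.89 on the log2 scale (adjusted p = 7.05e-07). PSAT1 fell by 0.82 and ASNS by 0.82 over the same interval (adjusted p = 2.23e-08 and 2.40e-11). Relative to day 6, SLC6A9 was higher by 0.63, PSAT1 by 0.43 and SLC7A11 by 0.39 (adjusted p = 4.34e-05, 4.26e-04 and 9.15e-04), whereas for ASNS the difference was 0.16 (adjusted p = 0.108). These contrasts share libraries with the comparison of day 10 and day 8 and are not independent of it.

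Relative to day 0, the same transcripts were still lower on day 10. The log2 fold changes were −0.36 for SLC6A9, −0.37 for PSAT1, −0.70 for ASNS, −0.63 for SLC7A11 and −0.96 for WARS, and the adjusted p was at most 0.00457. Averaged over the 19 synthesis genes, the mean log2 CPM was 0.86 ± 0.03 above day 8 on day 0, 0.43 ± 0.08 above it on day 6 and 0.63 ± 0.08 above it on day 10 (SD, n = 5).

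**Figure D2:**
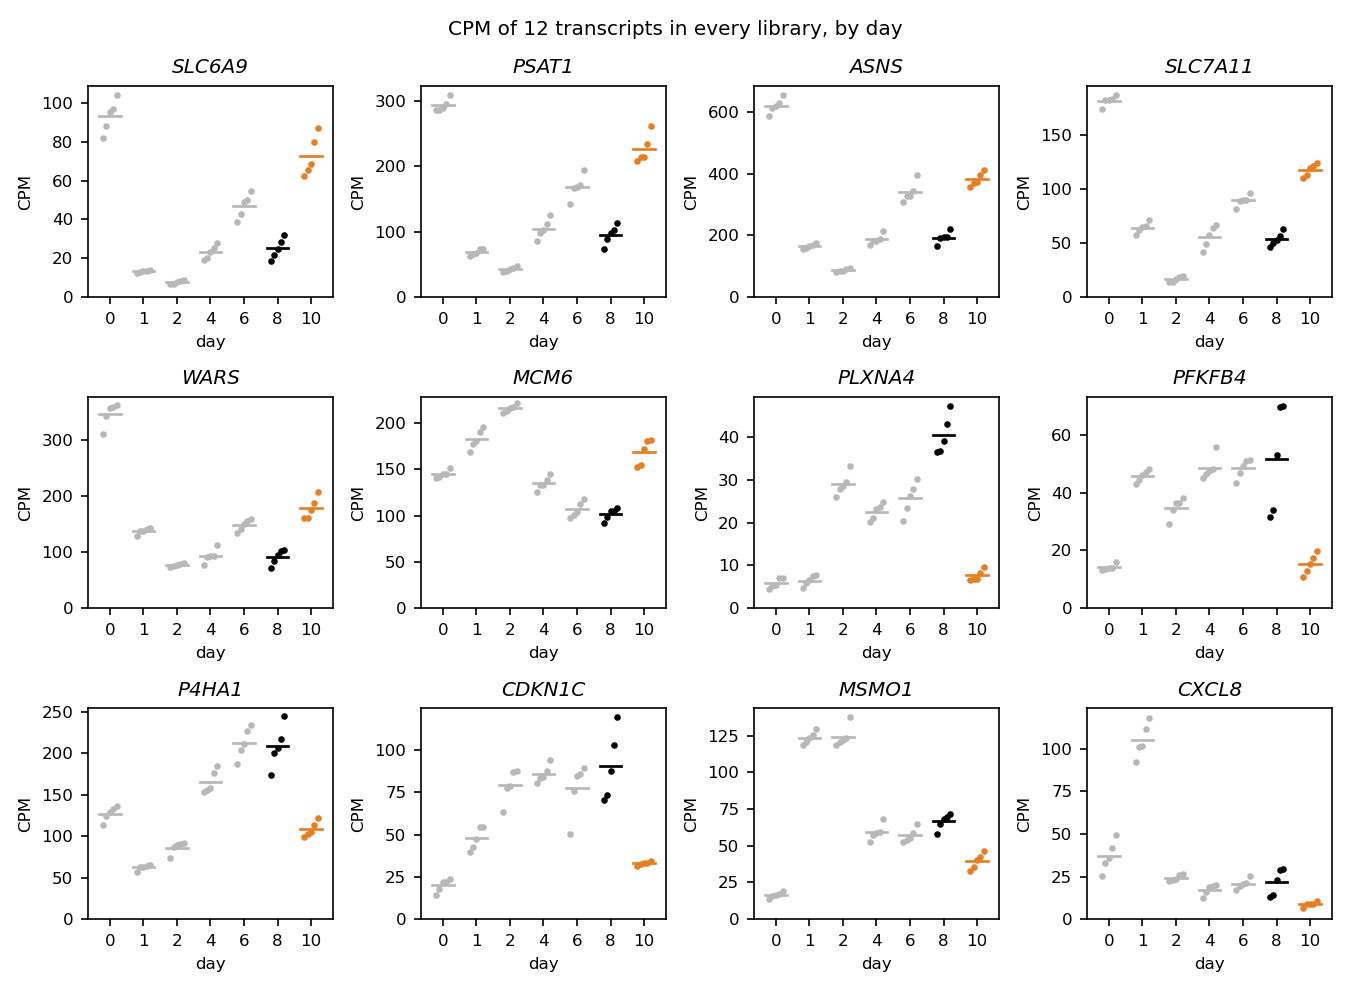
CPM of 12 transcripts (vertical axes, linear from 0) on each sampled day (horizontal axes). Each point is 1 library, the 5 points of a day are sorted by value, and the bars are the means, with day 8 in black and day 10 in orange. SLC6A9, PSAT1, ASNS, SLC7A11 and WARS dip on day 8 between day 6 and day 10, while PLXNA4, PFKFB4, P4HA1 and CDKN1C drop after day 8.

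Other transcripts that rose, SNTB1, INHBE, INHBC, MUC21 and BHLHE40, had also fallen from day 6 to day 8, by 1.04 to 1.72 on the log2 scale. SNTB1, a syntrophin of the dystrophin complex (chromosome 8, 120535745 to 120813273), had 22.7, 25.03, 18.6, 20.3 and 24.3 CPM in the day 8 libraries (replicates 1 to 5) and 59.4, 54.97, 48.6, 42.5 and 49.1 CPM in the day 10 libraries. The rise (log2 fold change 1.20, standard error 0.09, adjusted p = 1.22e-12) followed a fall of 1.04 from day 6 to day 8. The neighbouring genes INHBE and INHBC, which encode activin subunits, rose by 1.32 and 2.04 (adjusted p = 1.29e-06 and 9.67e-04). INHBC was near the limit of detection, with 2.10, 1.48, 0.451, 0.846 and 0.192 CPM in the day 8 libraries (replicates 1 to 5) and 7.04, 2.13, 3.71, 3.21 and 5.45 CPM in the day 10 libraries, and its lowest day 10 value lay just above its highest day 8 value. MUC21, a membrane mucin, had 0.873, 1.60, 1.20, 1.13 and 1.15 CPM in the day 8 libraries (replicates 1 to 5) and 4.40, 5.26, 4.52, 3.82 and 5.61 CPM in the day 10 libraries. Every day 10 library was over the day 8 libraries (log2 fold change 1.95, standard error 0.33, adjusted p = 3.89e-05), though both days were below day 0, at 13.3 CPM.

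The DNA-binding repressor BHLHE40 was at 72.99, 78.9, 43.6, 32.99 and 67.8 CPM in the day 8 libraries (replicates 1 to 5) and 114, 144, 135, 124 and 123 CPM in the day 10 libraries. Day 8 replicates 3 and 4 were lowest, and the days did not overlap (log2 fold change 1.11, standard error 0.17, adjusted p = 8.93e-06). DEPTOR, an inhibitor of mTOR that is abundant in myeloma cells, had 141, 153, 164, 156 and 160.3 CPM in the day 8 libraries (replicates 1 to 5) and 249, 272, 238, 249 and 251 CPM in the day 10 libraries. Both groups were tight (log2 fold change 0.70, standard error 0.05, adjusted p = 9.46e-14), and DEPTOR was also above day 0 on day 10, by 0.76. ARHGAP9, a GTPase-activating protein, and NLRP12, an inflammasome-family protein, rose by 1.59 and 1.52 from at most 2.44 CPM in each day 8 library. The call of NLRP12 was lost in the edgeR fit of only the libraries of days 8 and 10 (adjusted p = 0.0704). Less secure were NAIP, DUX4, PLAC1 and PXYLP1 (log2 fold changes 2.32, 1.96, 1.49 and 1.44), which had 17 to 32 counts in the 5 day 8 libraries together. Each of the 4 lost its call in 6 to 9 of the 15 to 17 alternative settings that gave a value. NAIP and DUX4 may share reads with near-identical copies elsewhere in the genome, which was not tested.

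Chaperones and quality-control genes of the ER were mostly higher. Of 29 such genes, 20 were higher and 1 lower, with a median of 0.29 (72.4% called, against 10.1% of all transcripts). SEL1L, a subunit of the ubiquitin ligase complex for ER-associated degradation, had 169, 184, 155, 151 and 169.9 CPM in the day 8 libraries (replicates 1 to 5) and 274, 286, 278, 243 and 266 CPM in the day 10 libraries. The gap between the days exceeded the range within either (log2 fold change 0.70, standard error 0.06, adjusted p = 1.33e-11). CREB3L2, an ER-anchored transcription factor, rose by 0.65 and ERN1, the sensor IRE1, by 0.52. HSPA5, the chaperone BiP, went from 1301 ± 47.4 CPM to 1651 ± 99.9 CPM (SD, n = 5; log2 fold change 0.34, standard error 0.05, adjusted p = 1.48e-06), against 2540 CPM on day 0. The oxidase ERO1A was called lower (−0.24, adjusted p = 0.0367), and XBP1, with 0.02, did not pass the threshold. The subunits of the proteasome itself, the target of carfilzomib, were close to level. Of 33, 2 passed the threshold, PSMD12 (0.46) and PSMC2 (0.16), or 6.06% against 10.1% of all transcripts, and the median was 0.02. The calls of ERO1A and PSMC2 were each lost in 9 of 17 alternative settings.

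**Figure D3:**
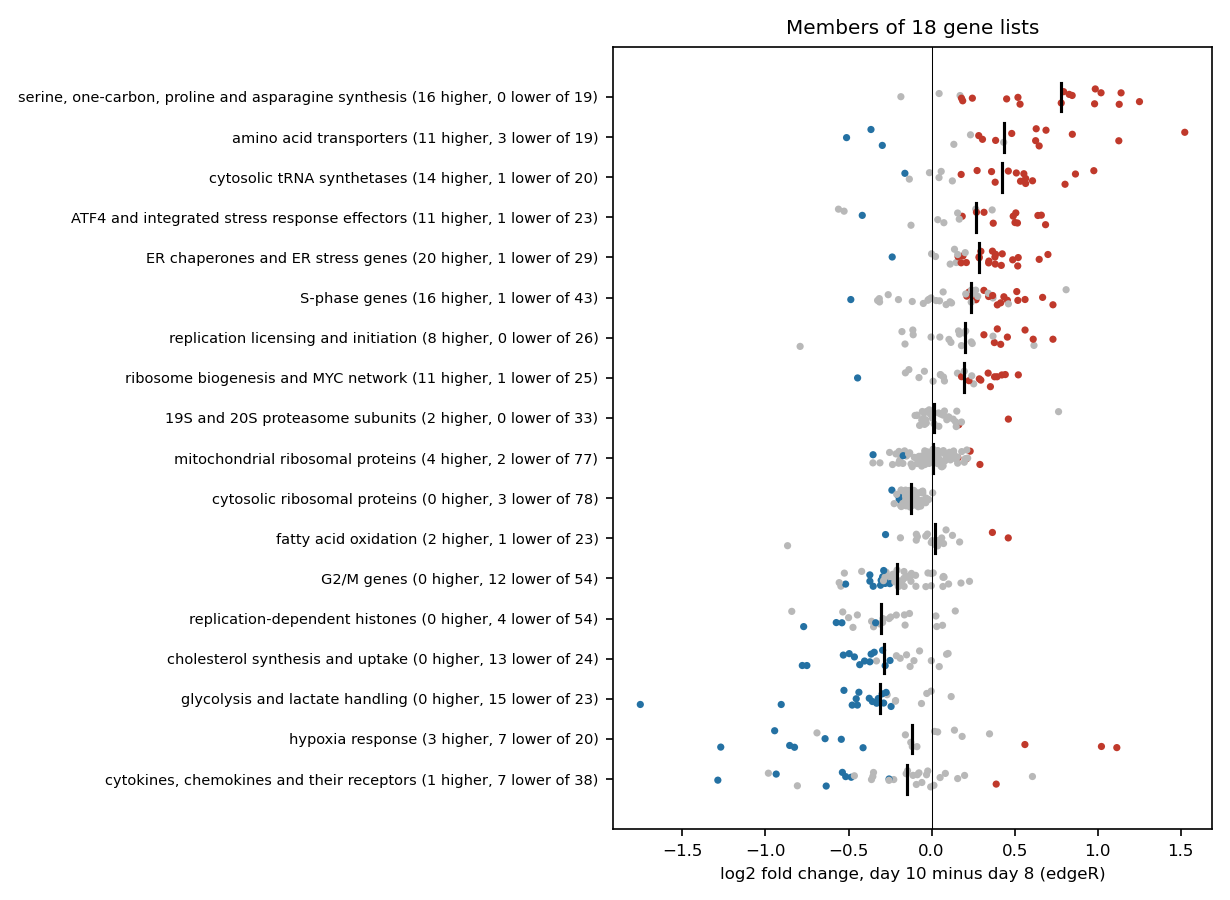
Log2 fold change of day 10 relative to day 8 (horizontal axis) for the members of 18 gene lists with a mean log2 CPM above 0. Red points were higher and blue points lower at an adjusted p of at most 0.05, grey points did not pass it, and the black ticks are list medians, with the counts over all measured members beside each name. Amino acid synthesis has its median at 0.78, proteasome subunits at 0.02 and glycolysis at −0.31.

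Glycolysis ran the other way. Of 23 genes for glucose uptake, glycolysis and lactate handling, 15 were lower and 0 higher (65.2% called against 10.1% of all transcripts). For 13 of the 23 the days did not overlap, against 7.39% of all transcripts (median log2 fold change −0.30). The mean log2 CPM of the list, relative to the day 8 mean, was −0.18 to 0.19 in the day 8 libraries. In the day 10 libraries it was −0.43 to −0.31. With any 1 of the 10 libraries left out, 14 to 16 members were called lower. PFKFB4, a kinase and phosphatase that sets the fructose-2,6-bisphosphate level (chromosome 3, 48517684 to 48562015), had 70.2, 69.7, 33.96, 31.7 and 53.1 CPM in the day 8 libraries (replicates 1 to 5) and 10.7, 12.9, 15.3, 19.9 and 17.5 CPM in the day 10 libraries. Day 8 replicates 3 and 4 were the lowest of their day and still above every day 10 library (log2 fold change −1.75, standard error 0.16, adjusted p = 4.14e-11). ENO2, a neuronal-type enolase, went from 35.1 ± 5.04 CPM to 18.7 ± 0.664 CPM (SD, n = 5; log2 fold change −0.91, standard error 0.11, adjusted p = 2.22e-07). The isomerase GPI fell by 0.53 and GAPDH by 0.27 on the log2 scale. The glucose transporter SLC2A1 had 67.6, 92.7, 39.7, 40.3 and 86.4 CPM in the day 8 libraries (replicates 1 to 5) and 71.8, 62.1, 57.98, 53.6 and 67.5 CPM in the day 10 libraries. The days overlapped and it did not pass the threshold (log2 fold change −0.06, standard error 0.15, adjusted p = 0.911). TXNIP, which restrains glucose uptake, had a log2 fold change of −0.00 (adjusted p = 1.000).

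Genes that respond to low oxygen were divided, with 7 of 20 lower and 3 higher. Together 10 of the 20 were called, where 10.1% of all transcripts were called. NDRG1, a stress-responsive gene strongly induced by hypoxia, had 1888, 2436, 1357, 1250 and 2182 CPM in the day 8 libraries (replicates 1 to 5) and 676, 716, 825, 818 and 746 CPM in the day 10 libraries. All day 10 libraries were lower (log2 fold change −1.27, standard error 0.11, adjusted p = 1.82e-11). P4HA1, a collagen prolyl hydroxylase (chromosome 10, 73007217 to 73096974), had 201, 245, 206, 173 and 218 CPM in the day 8 libraries (replicates 1 to 5) and 102, 114, 122, 105 and 98.8 CPM in the day 10 libraries. Its days were far apart (log2 fold change −0.94, standard error 0.08, adjusted p = 2.17e-12). BNIP3, a mitophagy receptor, fell by 0.85. The 3 that rose were BHLHE40, ANKRD37 (1.02) and the vasodilator peptide ADM (0.56). The mean log2 CPM of the list differed between the day 8 libraries themselves. Relative to the day 8 mean it was 0.22, 0.39, −0.34, −0.46 and 0.19 in replicates 1 to 5, and between −0.17 and −0.02 in the day 10 libraries. With any 1 of the 10 libraries left out, 7 or 8 members were still called lower.

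GBE1, the glycogen branching enzyme, and KDM4B, a histone demethylase, were among the falls with the smallest p. GBE1 had 198, 210.3, 202, 188 and 202 CPM in the day 8 libraries (replicates 1 to 5) and 109, 121, 121, 109 and 113 CPM in the day 10 libraries. The groups were tight (log2 fold change −0.80, standard error 0.05, adjusted p = 2.12e-14). KDM4B had a mean of 148 ± 13.8 CPM on day 8 and 83.5 ± 6.90 CPM on day 10 (SD, n = 5; log2 fold change −0.83, standard error 0.06, adjusted p = 3.68e-13). The letters ACGTG, the core of the hypoxia response element, were in 9 of 16 promoter windows of the hypoxia list (56.2%), 8 of 21 of the glycolysis list (38.1%) and 26.7% of the windows of transcripts with a mean log2 CPM above 0. Over expressed transcripts past the threshold they were in 164 of 705 that were lower (23.3%) and 257 of 748 that were higher (34.4%), again without a test. The stretches printed here, from before the start of 4 genes that fell and of ANKRD37, which rose, show each match on either strand in capitals. CACGTG holds the letters on both strands.
P4HA1, chr10:73096908-73096992, minus strand: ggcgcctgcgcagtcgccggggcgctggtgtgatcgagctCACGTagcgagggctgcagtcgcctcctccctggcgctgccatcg
BNIP3, chr10:131982012-131982097, minus strand: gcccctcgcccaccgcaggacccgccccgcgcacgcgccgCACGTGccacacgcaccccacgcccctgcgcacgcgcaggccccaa
ENO2, chr12:6914422-6914506, plus strand: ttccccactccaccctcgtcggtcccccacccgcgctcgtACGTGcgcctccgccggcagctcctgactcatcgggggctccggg
GBE1, chr3:81761713-81761797, minus strand: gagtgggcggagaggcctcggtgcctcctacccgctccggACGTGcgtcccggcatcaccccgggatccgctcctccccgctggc
ANKRD37, chr4:185396639-185396742, plus strand: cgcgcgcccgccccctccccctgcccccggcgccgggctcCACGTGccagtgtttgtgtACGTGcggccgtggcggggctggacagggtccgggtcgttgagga

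The fall with the smallest p of all transcripts was that of PLXNA4, a plexin that transduces semaphorin signals (chromosome 7, 132123340 to 132648688). It had 47.3, 43.04, 39.2, 36.7 and 36.8 CPM in the day 8 libraries (replicates 1 to 5) and 6.68, 6.82, 9.69, 6.88 and 8.18 CPM in the day 10 libraries. The lowest day 8 value was far above all day 10 values (log2 fold change −2.41, standard error 0.13, adjusted p = 2.18e-17). It had averaged 5.78 CPM at the start and 25.7 CPM on day 6, and on day 10 it was still called higher than at the start (log2 fold change 0.40, adjusted p = 0.0464). TSPAN9, a tetraspanin, had 27.1, 27.99, 28.4, 25.1 and 26.4 CPM in the day 8 libraries (replicates 1 to 5) and 10.9, 9.94, 12.3, 12.2 and 9.30 CPM in the day 10 libraries. It came close to its day 0 mean of 10.4 CPM (log2 fold change −1.30, standard error 0.09, adjusted p = 1.18e-13).

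CDKN1C, which encodes the cell-cycle inhibitor p57, had 87.3, 103, 73.3, 70.5 and 119.5 CPM in the day 8 libraries (replicates 1 to 5) and 31.5, 32.4, 33.4, 33.01 and 34.2 CPM in the day 10 libraries. The day 10 libraries were close to each other and all below the lowest day 8 library (log2 fold change −1.46, standard error 0.13, adjusted p = 5.76e-11). From day 6 to day 8, neither PFKFB4, TSPAN9 nor CDKN1C had passed the threshold (log2 fold changes 0.09, 0.17 and 0.23). On day 10 PFKFB4 was 0.11 and TSPAN9 0.07 above day 0 on the log2 scale, neither past the threshold, whereas CDKN1C was higher by 0.72 (adjusted p = 2.57e-04). Other deep falls at lower levels were in TMEM229B (−1.71), the focal adhesion protein TNS1 (−1.48), the transcriptional regulator TRERF1 (−1.45), the arginine deiminase PADI2 (−1.41), ADGRB2 (−1.48) and GAS2L1 (−1.41). RAP1GAP and ASIC1, at −1.75 and −1.76, had 22 and 14 counts in all day 10 libraries together. The call of ASIC1 was lost in 10 of the 16 alternative settings that gave a value, and that of RAP1GAP when day 10 replicate 3 was left out (adjusted p = 0.0506).

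**Figure D4:**
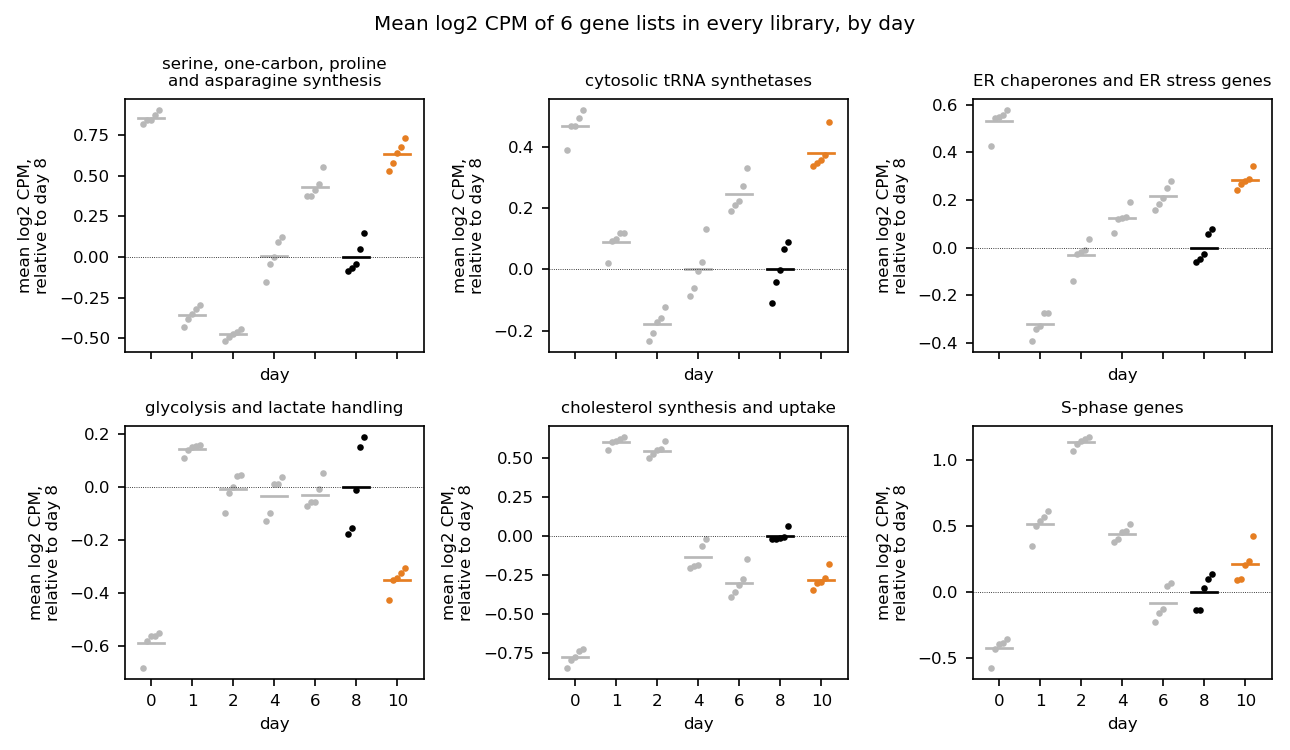
Mean log2 CPM over the members of 6 gene lists relative to the day 8 mean (vertical axes), in each library on each day (horizontal axes). Points are libraries sorted by value within a day and bars are means, with day 8 in black and day 10 in orange. The synthesis genes stand at 0.63 and the glycolysis genes at −0.35 on day 10.

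The cholesterol pathway fell as well. Of 24 genes for sterol synthesis and uptake, 13 were lower and 0 higher (median −0.29, 54.2% called against 10.1% of all transcripts). MSMO1, the sterol C4-methyl oxidase, had 71.8, 69.3, 68.2, 58.2 and 64.9 CPM in the day 8 libraries (replicates 1 to 5) and 33.1, 35.5, 46.5, 42.3 and 39.9 CPM in the day 10 libraries. The days did not overlap (log2 fold change −0.75, standard error 0.08, adjusted p = 3.22e-09). In the related list of fatty acid synthesis, 4 of 15 were lower and 1 higher (33.3% called). FADS2 was at −0.33 and ACACA at 0.20.

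Called members of the S-phase and G2/M lists mostly moved in opposite directions, though the library means of both lists overlapped between the days. Relative to the day 8 mean, the mean log2 CPM of the S-phase list was −0.13 to 0.14 on day 8 and 0.09 to 0.42 on day 10. That of the G2/M list was −0.07 to 0.14 on day 8 and −0.30 to −0.01 on day 10. The S-phase list had 16 rises and 1 fall among 43 genes (median 0.24, 39.5% called). The G2/M list had 0 rises and 12 falls among 54 (median −0.21, 22.2% called), where 10.1% of all transcripts were called. The S-phase count was 10 without day 8 replicate 2 and 10 without day 10 replicate 5. MCM6, a subunit of the replicative helicase, had 105, 98.4, 108, 92.1 and 105 CPM in the day 8 libraries (replicates 1 to 5) and 155, 181, 172, 153 and 181 CPM in the day 10 libraries. It was the largest rise of the S-phase list past the threshold (log2 fold change 0.73, standard error 0.06, adjusted p = 1.22e-12). TIPIN, a replication fork protein, rose by 0.67 and MCM4, another helicase subunit, by 0.56. RRM2, the small subunit of ribonucleotide reductase, fell by 0.49 (adjusted p = 4.34e-06).

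The falls of the G2/M list were shallow. TUBB4B, a tubulin, fell by 0.52, CDC20, an activator of the anaphase-promoting complex, by 0.37, CKS2, a partner of cyclin-dependent kinases, by 0.37 and TOP2A, the mitotic topoisomerase, by 0.25 on the log2 scale. Of 26 licensing and initiation genes, many of them also on the S-phase list, 8 (30.8%) were higher, among them the kinase CDC7 (0.61), and 0 lower. Of 25 genes of ribosome biogenesis and the MYC network, 11 were higher and 1 lower (48.0% called). UTP20 was at 0.52, the antagonist MXD4 at −0.45 and MYC at 0.01. Replication-dependent histone transcripts did not rise with the S-phase list. Of 54, 4 were lower, HIST1H2AC (−0.77), HIST1H2BD (−0.57), HIST1H2BJ (−0.54) and HIST2H2BE (−0.34), and 0 higher. This is a share of 7.41% where 10.1% of all transcripts were called, and the call of HIST1H2BJ was lost in 8 of 17 alternative settings. Of the 24 with a mean log2 CPM above 0, 20 had a negative and 4 a positive log2 fold change (median −0.30).

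Among secreted signals and their receptors, 7 of 38 were lower and 1, the chemokine receptor CXCR4 (0.39), was higher. This is 21.1% called, against 10.1% of all transcripts. CXCL8, the neutrophil chemoattractant interleukin-8, had 23.2, 28.6, 14.3, 12.8 and 29.5 CPM in the day 8 libraries (replicates 1 to 5) and 8.79, 8.95, 9.04, 10.5 and 6.74 CPM in the day 10 libraries. Day 8 replicates 3 and 4 were nearest to the day 10 libraries, and no value overlapped (log2 fold change −1.29, standard error 0.19, adjusted p = 4.34e-06). IL10, an anti-inflammatory cytokine, fell by 0.94 and CCR1, a chemokine receptor, by 0.63. Of 9 measured transcripts of metallothioneins, which are small zinc-binding proteins, and of the zinc response, 3 were lower and 0 higher (33.3% called). MT1G went from 3.54 ± 0.732 CPM to 1.28 ± 0.517 CPM (SD, n = 5; log2 fold change −1.46, standard error 0.32, adjusted p = 0.00129). MT2A fell by 2.26 and MT1X by 0.81, with an overlap of the days in both. Reads of these near-identical genes may be divided between them. HMOX1, the haem oxygenase induced by oxidative stress, had 12.7, 15.9, 7.96, 9.30 and 12.3 CPM in the day 8 libraries (replicates 1 to 5) and 6.51, 6.11, 4.52, 7.03 and 6.10 CPM in the day 10 libraries. It was lower on day 10 (log2 fold change −0.95, standard error 0.20, adjusted p = 8.84e-04), and both days were far below its mean of 187 CPM on day 1.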

How the data were processed

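RNA was measured in 35 libraries, 5 on each of 7 days, by paired-end sequencing of a strand-specific library. The deposited values are estimated counts in whole numbers per gene symbol and transcript biotype. Per the study's methods, the authors obtained them with kallisto (0.44.0) against GENCODE transcripts (GRCh38.p12) with a correction for GC content and summed them with tximport, adjusted for transcript length. A gene's reads can therefore be divided over several biotype entries. Groups and replicate numbers were taken from the labels, and the members and gene lists were chosen with earlier results of these data known.

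Of 19665 protein-coding entries, the 17999 with a count in any library were fitted with edgeR's quasi-likelihood test (4.0.16, R 4.3.3, TMM factors, day as a factor, all 35 libraries), contrast day 10 minus day 8, Benjamini-Hochberg adjustment over all entries. Standard errors are the log2 fold change over the root of the F statistic. The lincRNA and antisense entries used the same library sizes and factors. Log2 CPM used a prior count of 2. The script was tested on simulated data.

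Named transcripts were the 12 largest rises and falls among deregulated transcripts with a mean log2 CPM above 0 and no overlap between the days, the 5 rises and 5 falls of smallest p, for each list the members past the threshold (the 3 highest and 3 lowest where more than 6) or, with none, the highest and lowest member, and transcripts the study named. Further list members that did not pass the threshold, and MYC, were named after their values were seen. Positions came from GENCODE 44 and promoter windows from RefSeq (GRCh38.p14). Alternatives were filterByExpr, RLE or no factors, a replicate block, only the 10 libraries of both days, DESeq2 (1.42.0), stricter thresholds and each library left out in turn, and, added after seeing the data, counts summed over biotypes and the libraries left out in turn for the lincRNA and antisense entries. Some transcripts that the rule names are not reported here. No columns of other samples were present.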

Additional observations from a re-analysis of the deposited data

Results flagged for a closer look

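A single library lay far from the other 4 of its day in 2 of 62 groups of 5 libraries (31 transcripts on each day, log2 CPM), where chance would flag about 1 in 20. GAS2L1 was lowest in day 10 replicate 3, at 0.485 CPM against 0.917 to 1.14 CPM in the others, with a gap of 0.726 of the range. PXYLP1 was highest in day 10 replicate 1, at 2.64 CPM against 1.12 to 1.45 CPM, with a gap of 0.712 of the range. Without that library the log2 fold change of PXYLP1 was 1.17 (adjusted p = 0.144 from edgeR).

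The lincRNA and antisense entries, which lie outside the protein-coding comparison, held 12 of 10264 entries (0.117%) past both thresholds, 6 higher and 6 lower on day 10, and 28 past the adjusted p alone. The lincRNA DBET, from the D4Z4 repeats that also carry DUX4, rose from 2.92 ± 1.08 CPM to 8.61 ± 1.69 CPM (SD, n = 5; log2 fold change 1.57, adjusted p = 9.99e-12 from edgeR). It was at 47.8 CPM on day 0, and its reads may come from several near-identical repeat copies. The antisense entry RP11-161H23.5 fell from 10.97 ± 4.35 CPM to 4.91 ± 3.06 CPM (SD, n = 5; log2 fold change −1.16, adjusted p = 4.70e-08 from edgeR). The lincRNA entry RP11-495P10.5 rose from 0.535 ± 0.458 CPM to 2.81 ± 0.454 CPM (SD, n = 5; log2 fold change 2.26, adjusted p = 2.50e-05 from edgeR). The entry RP1-163M9.8 had no count on day 8 and averaged 0.947 ± 2.12 CPM on day 10, with all its day 10 counts in 1 library.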

How the results depend on the processing

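Of 207 named transcripts, the direction of the 195 past the threshold held under every alternative that gave a value, and 6 of the other 12 changed sign. Of the 195, 135 stayed past it under every such alternative and 60 lost it under at least 1; the cause was not tested. With DESeq2, 94 transcripts were deregulated and 2134 passed the threshold, 85 and 1771 of them shared with edgeR. Fitting only the 10 libraries of both days gave 109 and 1336. Counts summed over biotypes gave 133 and 2313, of which 88 and 1680 were shared. With no factors 56.3% of calls were higher on day 10, against 50.6% with TMM, and the median of expressed transcripts stayed within 0.02 of 0.

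Stricter thresholds moved the counts. A fold criterion of 2 on the log2 scale left 26 deregulated transcripts (11 higher, 15 lower). An adjusted p of at most 0.01 left 69 (20 higher, 49 lower), and 1031 (516 higher, 515 lower) without the fold criterion. Leaving out 1 library gave 27 to 41 deregulated rises, lowest without day 10 replicate 1, 10 to 16 S-phase rises, 3 to 5 rises among the plasma cell genes and 2 to 19 falls among the nuclear-encoded respiratory chain subunits, with 2 without day 8 replicate 5 and 19 without day 8 replicate 1. The last list had 4 falls in the fit of the 10 libraries and 16 with DESeq2. The other list counts stayed within 1.5 times. Leaving out 1 library gave 8 to 16 lincRNA and antisense entries.

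With a replicate block, 113 transcripts were deregulated, 108 of them shared, and 1839 passed the threshold. The labels do not say that a number marks a shared culture. Same-numbered libraries of both days deviated from their day's mean with a correlation of −0.009 to 0.109, and 2 of 5 day 8 libraries correlated best with their own number. Replicates of 1 day differed by more than sampling noise (chi-square per degree of freedom 3.39 to 9.64).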

Other observations

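Markers of plasma cell identity and therapy targets were measured in 24 transcripts. At an adjusted p of at most 0.05 from edgeR, 5 rose and 1 fell, where 10.1% of all transcripts were called. GPRC5D, a surface receptor targeted in myeloma, had 6.46, 9.002, 6.61, 6.91 and 8.04 CPM in the day 8 libraries (replicates 1 to 5) and 9.50, 9.66, 11.5, 11.8 and 13.95 CPM in the day 10 libraries. Its lowest day 10 value lay above its highest day 8 value (log2 fold change 0.60, standard error 0.20, adjusted p = 0.0419), and its call was lost in 7 of the 10 fits with 1 library left out (adjusted p up to 0.141). TNFRSF17, which encodes BCMA, rose by 0.33 and TNFRSF13B, which encodes TACI, by 0.31, and CCR1 fell by 0.63. The count of rises was 3 without day 8 replicate 5 and 3 without day 10 replicate 4. PAX5, a B-cell factor that plasma cells normally silence, fell from 4.20 ± 0.546 CPM to 2.08 ± 0.330 CPM (SD, n = 5; adjusted p = 0.00251). It was the only 1 of 6 B-cell markers past the threshold. Of the 4 with a mean log2 CPM above 0, 3 had a positive and 1 a negative log2 fold change. The median of their summed level was 45.78 CPM on day 8 and 44.43 CPM on day 10 over all 6 markers.

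Of 16 members of the BCL2 family, which governs apoptosis, 1 was higher and 1 lower (12.5%, against 10.1% of all transcripts). BCL2, the anti-apoptotic protein, went from 359 ± 31.4 CPM to 461 ± 25.9 CPM (SD, n = 5; log2 fold change 0.36, standard error 0.06, adjusted p = 1.10e-05), and BCL2L11, the pro-apoptotic protein BIM, from 156 ± 9.38 CPM to 122 ± 5.80 CPM (log2 fold change −0.35, standard error 0.05, adjusted p = 7.87e-06). Of 12 MHC class II genes, HLA-DRA (−0.43) and the invariant chain CD74 (−0.31) were lower and none higher, and of 15 genes of MHC class I and peptide loading, the peptide transporter TAP2 (0.26) and the aminopeptidase ERAP1 (0.25) were higher. Of 36 interferon-stimulated genes, 4 were higher, with SAMD9L at 0.51 and HERC5 at 0.55, and 2 were lower, IFI6 (−0.52) and IRF1 (−0.38). The shares called in these 3 lists were 13.3% to 16.7%. Transcripts with a mean log2 CPM above 0 were called more often than the 10.1% of all transcripts.

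Mitochondrial genes changed by small amounts. Of 75 nuclear-encoded subunits, 10 were lower and 0 higher (13.3%, against 10.1% of all transcripts), with a median of −0.12. All 75 had a mean log2 CPM above 0. Of the 12401 such transcripts, 904 were higher and 882 lower, a share above that of all transcripts and of this list. A negative log2 fold change was found for 67 of the subunits and a positive one for 8. These signs come from the same libraries and are not independent. The mean log2 CPM of the subunits, relative to the day 8 mean, overlapped between the days. It was −0.18 to 0.15 in the day 8 libraries and −0.20 to −0.06 in the day 10 libraries. The count of falls was between 2 and 19 when 1 library was left out. Of 77 mitochondrial ribosomal proteins, 4 were higher and 2 lower (7.79%). Of 78 cytosolic ribosomal proteins, 3 were lower (3.85%), with a median of −0.12. Both shares lay below that of all transcripts. Of the 78 cytosolic members, 77 had a negative log2 fold change and 1 a positive one, and these signs are not independent either. Relative to the day 8 mean, the mean log2 CPM of the 78 was −0.20 to 0.16 in the day 8 libraries. In the day 10 libraries it was −0.25 to −0.03, so the days overlapped. Of 13 mitochondrially encoded mRNAs, MT-ATP6 (0.30) and MT-ATP8 (0.37) were higher (15.4%), and their calls were lost in 11 and 5 alternative settings. Fatty acid oxidation had 2 higher, SLC25A20 (0.46) and ETFDH (0.37), and 1 lower, ACSL1 (−0.28), of 23 (13.0%, near the share of all transcripts), and the call of ETFDH was lost in 7 of 17 alternative settings.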
